A study of Mus musculus with 3 samples.

Results

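The genes described here are the collagen chains, laminin chains, matrix metalloproteinases (Mmp), their tissue inhibitors (Timp) and Adamts proteases of the mouse, chosen by the pattern of their symbols, with Fn1, Ccn2, Sparc, Lox, Bgn, Nid1 and Nid2 added by name. The rule took 108 of the 32285 genes in the count matrices. It uses symbols and no measured value, but it was set with earlier results of these data known. Of these, 78 had 20 or more UMIs (unique molecular identifiers, each a counted RNA molecule) over all cells kept, 30 had fewer, and 8 of those had none. Col4a3bp matched the pattern by its symbol but encodes a ceramide transfer protein, so it is counted as a member and is not a collagen.

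Droplet single-cell RNA-seq was made of whole kidneys of male mice aged 28 weeks, with 1 library for each of 3 groups. The first group was db/db mice on a 60% fructose diet, the second db/db mice on a fructose-free control diet, and the third db/m mice on that control diet. The diets began at 8 weeks of age and lasted 20 weeks. Mice homozygous for db cannot signal through the long leptin receptor and become obese and diabetic, while db/m mice carry 1 intact copy and stay lean. The number of mice behind each library is not given in the sources used here. With 1 library a group, no difference below has a replicate check and no test was possible: intervals are exact 95% intervals that cover counting error only, and "higher" and "lower" mark a ratio of 1.5-fold or more between libraries.

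The kidney's cells sit on or in a matrix that they make themselves. Basement membranes under tubules, capillaries and podocytes are sheets of type IV collagen and laminin joined by nidogens, and the mesangium, the stalk that holds the glomerular capillaries together, is made by mesangial cells. Type IV collagen comes as several networks, one built from the chains of Col4a1 and Col4a2 and one, typical of the mature glomerular filter and parts of the tubule, from those of Col4a3, Col4a4 and Col4a5. Metalloproteinases and Adamts enzymes cut matrix proteins and their inhibitors hold them in check. In chronic kidney disease interstitial fibroblasts lay down fibrillar collagens.

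After filtering, 16043 cells were kept in the db/db fructose library, 16223 in the db/db control library and 9950 in the db/m library, with median depths of 1530, 1628 and 1687 UMIs a cell. Cells were clustered without the members, so that none of them defines a class, and a class was called "-like" by marker genes. The median share of mitochondrial UMIs was 10.6% in db/db fructose cells, 24.7% in db/db control cells and 15.1% in db/m cells, so the db/db control library stood apart. Its unnamed clusters were also large, with 3148 cells, against 647 in the db/db fructose library and 229 in the db/m library. Proximal tubule markers reached 64.1%, 54.6% and 46.8% of their library level in lymphocyte-like cells, a measure of the RNA of other cells in a droplet. Pairs of libraries shared 369 (db/db fructose and db/db control), 209 (db/db fructose and db/m) and 249 (db/db control and db/m) barcodes among kept cells. The db/db control library enters both comparisons, db/db fructose over db/db control and db/db control over db/m, so neither leaves it out. Ratios of db/db fructose over db/m, which do leave it out, are given below for some members; they differ in genotype and diet at once and were added after the library was seen to stand apart. The part of these differences in the results below was not tested beyond the alternative settings given. Levels are CPM, the UMIs of a gene per 1000000 UMIs of the class and library, not divided by gene length, and are compared between libraries and classes, not between genes.

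Members made up 5024 CPM of all kept cells in the db/db fructose library, 3368 CPM in the db/db control library and 4065 CPM in the db/m library. The genes at home in interstitial fibroblasts were close to unmeasured. Col1a1, a chain of the most abundant fibrillar collagen, had 8, 7 and 2 UMIs over all kept cells of the db/db fructose, db/db control and db/m libraries. Col1a2, its partner chain, had 24, 15 and 40 UMIs, most in the db/m library, where 55% lay in podocyte-like cells. Col3a1 had 14, 16 and 1 UMIs, Lox, a collagen cross-linking enzyme, had 47, 25 and 14, and Timp1, an inhibitor often followed in fibrosis, had 22, 10 and 5. The neighbouring type VI genes Col6a1 and Col6a2 had 11, 3 and 0 UMIs and 1, 4 and 1 UMIs in the same order of libraries. In the db/db control library unnamed clusters held 75% of the Col3a1 and 53.3% of the Col1a2 UMIs. No cluster was named fibroblast-like, so interstitial scarring genes could not be compared at this depth.

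The members that were measured fell into a few cell classes. Of the 78 with 20 or more UMIs, 23 had their highest level in mesangial-like cells, 14 in pericyte and smooth muscle-like cells, 8 in endothelium-like cells, 6 each in podocyte-like, proximal tubule-like and phagocyte-like cells, and the rest elsewhere. The 20 UMIs were counted over all kept cells and not within the class. Pericyte and smooth muscle-like cells were 24 db/db fructose, 25 db/db control and 23 db/m cells, so a highest level there can rest on very few UMIs. Timp1 (3.909 CPM) and Adamts3 (5.119 CPM) were among the members placed there. Mesangial-like cells held 80.2% of the UMIs of Adamts5, an enzyme that cuts large proteoglycans, in the db/db fructose library, 72.9% in the db/db control library and 68.6% in the db/m library. The connecting tubule and principal cell-like class held 93.6%, 84.6% and 93.9% of the UMIs of Col26a1 in the same order of libraries.

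**Figure D1:**
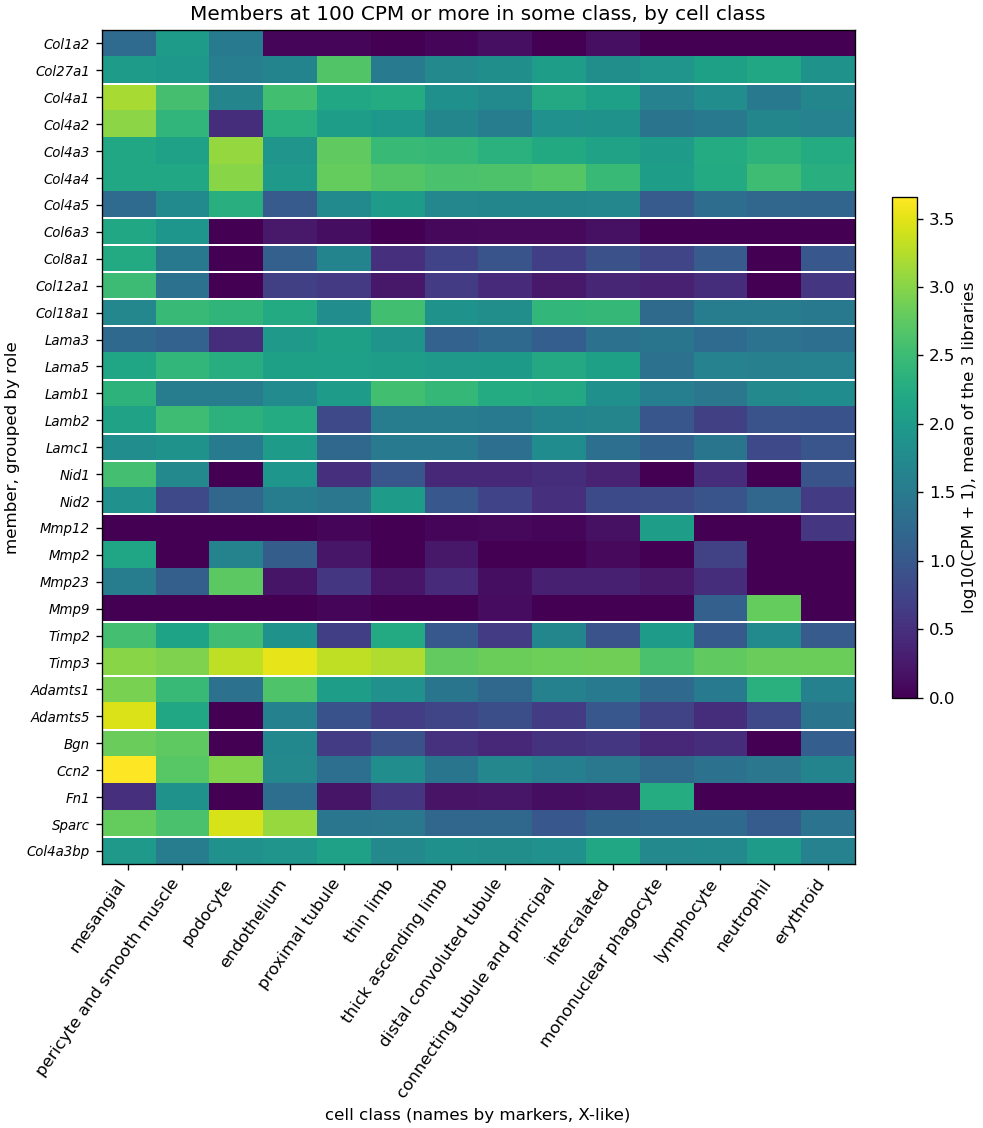
Level of 31 members with at least 100 CPM in their highest class, drawn for 14 cell classes as colour: log10 of CPM + 1, each cell of the grid being the mean of the 3 libraries. White lines part the members by role. Adamts5 and Ccn2 stand out in mesangial-like cells, Fn1 and Mmp12 in phagocyte-like cells, and Col27a1 in proximal tubule-like cells.

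Over all kept cells the db/db fructose library held more of many members than the db/db control library: 16 of 31 measured members were higher and 0 lower, where 11.1% of all 9778 genes tested were higher and 0.695% lower. With size factors 8 members were higher, and 10 over UMIs outside the mitochondrial genome or at 30% mitochondrial UMIs. Adamts5 had 82.91, 23.83 and 20.86 CPM in the db/db fructose, db/db control and db/m libraries, a log2 ratio of db/db fructose over db/db control of 1.80 (1.68 to 1.92). Ccn2, a matricellular protein induced by TGF-beta, had 137.2, 48.37 and 58.43 CPM, with a log2 ratio of 1.50. Bgn, the proteoglycan biglycan, had 32.58, 12.04 and 6.997 CPM, with a log2 ratio of 1.44. These sums mix the number of cells of a class with the level per cell. Mesangial-like cells, which hold most Adamts5 UMIs, were 397 in the db/db fructose library (2.475% of kept cells), 97 in the db/db control library (0.5979%) and 81 in the db/m library (0.8141%). The number of such cells in the kidney and their recovery in dissociation cannot be told apart here. Within mesangial-like cells Adamts5 was within 1.5-fold, as given below.

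For db/db control over db/m in all kept cells, 3 of 30 measured members were higher and 5 lower, where 3.06% of all genes tested were higher and 9.87% lower. Those higher were Col8a1, Col27a1 and Bgn. Those lower were Adamts15, Col26a1, Adamts1, Sparc and Timp2, of which Timp2, at -0.66, lost its call over UMIs outside the mitochondrial genome (-0.54) and with size factors (-0.57). The log2 ratios of db/db fructose over db/m were, for Sparc, Adamts1 and Timp2, 0.23, 0.18 and 0.18, of the other sign, while those of Col8a1, Col27a1 and Bgn were 1.34, 1.42 and 2.22. Sparc, a collagen-binding matricellular protein, had 204.3, 98.81 and 174.2 CPM in the db/db fructose, db/db control and db/m libraries, and podocyte-like cells held 1.87%, 1% and 26.4% of its UMIs, unnamed clusters 11.8%, 7.23% and 25.8%, and endothelium-like cells 63.3%, 79.2% and 39%. Podocyte-like cells themselves were 12, 8 and 108 in these libraries.

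Mesangial-like cells, named from Serpine2, Itga8 and other mural markers, carried the highest summed level of members: 18477 CPM in the db/db fructose library, 15927 CPM in the db/db control library and 15485 CPM in the db/m library. The last 2 libraries had under 100 cells of this class. Ccn2 had 4318, 4334 and 5004 CPM in these cells, and Adamts5 had 3153, 2840 and 2705 CPM. Both were within 1.5-fold in both comparisons, and the log2 ratio of db/db fructose over db/db control was 0.15 (0.02 to 0.29) for Adamts5. Timp3, the inhibitor bound to matrix, had 1169, 951.8 and 934.7 CPM and Adamts1 had 799.2, 754.3 and 959.5 CPM, again with no call in either comparison.

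Type IV collagen of mesangial-like cells was graded across the libraries. Col4a1 (chr8:11198423-11312826, minus strand) had 1871 CPM in db/db fructose cells, 1504 CPM in db/db control cells and 1183 CPM in db/m cells. Its log2 ratio was 0.32 (0.13 to 0.50) for db/db fructose over db/db control and 0.35 (0.05 to 0.64) between db/db control and db/m, both within 1.5-fold. Col4a2 (chr8:11312805-11449287, plus strand) had 1466, 921.4 and 719.6 CPM in the same order, so both chains of the network were ordered alike. Its log2 ratio was 0.67 (0.44 to 0.91) for db/db fructose over db/db control, a call that ended with size factors at 0.45, and 0.36 for db/db control over db/m. The call held in 6 of 10 alternative settings, with a lowest value of 0.41. The median of all genes was itself 0.26 in this class for db/db fructose over db/db control, and 0.20 in endothelium-like cells, 0.25 in proximal tubule-like cells and 0.32 over all kept cells, which size factors take out.

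Col4a1 and Col4a2 lie head to head, their transcript starts 21 bases apart, and their exons overlap there on opposite strands. The promoter windows of RefSeq (GRCm38.p6, 250 bases before to 50 after the start) are shown because the pair was ordered alike in this class. They are chr8:11312777-11313076, minus strand, and chr8:11312555-11312854, plus strand, overlap by 78 bases, and are printed 5′ to 3′ with capitals for the GC box GGGCGG and the CCAAT box CCAAT on either strand.
Col4a1: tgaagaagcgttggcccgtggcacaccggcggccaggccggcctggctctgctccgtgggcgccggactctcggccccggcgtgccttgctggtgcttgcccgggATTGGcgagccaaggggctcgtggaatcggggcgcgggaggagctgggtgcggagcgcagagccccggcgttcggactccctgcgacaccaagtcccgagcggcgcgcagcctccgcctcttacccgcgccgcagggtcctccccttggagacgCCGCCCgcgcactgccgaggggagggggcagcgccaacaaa
Col4a2: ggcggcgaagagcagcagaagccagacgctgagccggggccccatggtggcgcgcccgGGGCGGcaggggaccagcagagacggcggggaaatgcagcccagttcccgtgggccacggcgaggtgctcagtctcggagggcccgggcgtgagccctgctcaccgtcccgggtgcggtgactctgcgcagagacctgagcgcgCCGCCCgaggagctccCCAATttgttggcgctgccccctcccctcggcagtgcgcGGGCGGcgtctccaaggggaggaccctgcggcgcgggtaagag
The Col4a1 window held 1 GC box and 1 CCAAT box, the Col4a2 window 3 GC boxes and 1 CCAAT box, and neither the TATA box TATAAA. The GC box of the Col4a1 window is the same site as the last GC box of the Col4a2 window, in the shared bases. Of 32851 mouse windows of this length, 35.7% held the GC box, 37.4% the CCAAT box and 13.6% the TATA box on either strand. A match is a description of the letters and not of binding.

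Smaller collagens of mesangial-like cells differed more between the libraries, on few UMIs. For db/db control over db/m, 3 of 28 measured members were higher and 3 lower, where 33.4% of all genes tested passed 1.5-fold in either direction, a share above the members' own. Col6a3, a chain of the beaded type VI filament, had 144.2, 243 and 66.17 CPM from 98, 48 and 8 UMIs in the db/db fructose, db/db control and db/m libraries. Its log2 ratio was 1.88 (0.78 to 3.17) between db/db control and db/m and -0.75 (-1.26 to -0.22) for db/db fructose over db/db control, a call that ended at -0.41 with free RNA subtracted. Col12a1, a fibril-associated collagen, had 441.5, 334.1 and 190.2 CPM, with a log2 ratio of db/db control over db/m of 0.81 (0.11 to 1.56), which was 0.51 with free RNA subtracted and then no call. Col27a1 had 116, 19 and 5 UMIs and was also higher in db/db control cells than in db/m cells. The lower members were Col5a1, Col5a2 and Col4a3bp, each with under 20 UMIs in the db/db control and db/m libraries, and the intervals of all 3 took in 0.

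Bgn had 890.5, 637.9 and 446.7 CPM in db/db fructose, db/db control and db/m mesangial-like cells, with log2 ratios of 0.48 (0.20 to 0.77) for db/db fructose over db/db control and 0.51 (0.04 to 1.00) between db/db control and db/m. Neither passed 1.5-fold, and with size factors the second was called at 0.64. A Bgn UMI was found in 63.2% of db/db fructose, 60.8% of db/db control and 35.8% of db/m mesangial-like cells, against 0%, 0% and 1.22% of lymphocyte-like cells. Thinned to 1000 UMIs a cell, the shares of mesangial-like cells were 53.8%, 40.4% and 25.4%. Fn1, fibronectin, had 1, 1 and 0 UMIs and Col1a1 and Lox had none, and 0 UMIs over 397, 97 and 81 cells allow shares of cells that are small but not 0.

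Between db/db fructose and db/db control mesangial-like cells, 9 of 33 measured members were higher and 1 lower, where 28.5% of all genes tested were higher and 6.93% lower, shares near the members' own. Their median log2 ratio was 0.30 beside 0.26 for all genes. The metalloproteinases Mmp2, Mmp14, Mmp17 and Mmp23, named here as a family and not by the size of their ratios, were among those higher. Mmp2, a gelatinase, had 184, 121.5 and 115.8 CPM, and Mmp14, its membrane-bound activator, had 117.7, 75.94 and 57.9 CPM in the db/db fructose, db/db control and db/m libraries. The intervals of these 2 took in 0. With size factors 3 members were higher, and Col27a1 (0.61) and Col4a3bp (1.17) kept their calls. Endothelial markers summed to 3129, 2668 and 1787 CPM in these cells and proximal tubule markers to 7074, 7093 and 7527 CPM, with all 15 of the proximal list present in each library; their part in the results was not tested.

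**Figure D2:**
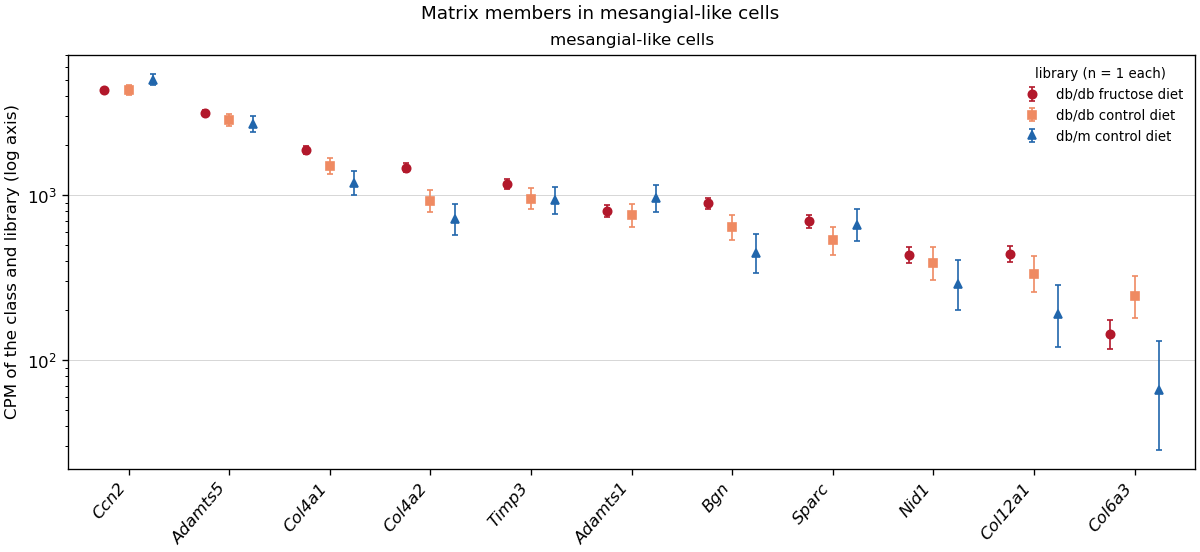
Members in mesangial-like cells: CPM per library with exact 95% intervals for counting error, libraries ordered db/db fructose, db/db control and db/m (397, 97 and 81 cells). Col4a1 and Col4a2 are highest in db/db fructose cells at 1871 and 1466 CPM, while Ccn2 and Adamts5 stay within 1.5-fold.

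Other genes of the matrix pathways in mesangial-like cells were led by Thbs1, thrombospondin 1, an activator of latent TGF-beta. Thbs1 had 284.1, 243 and 33.09 CPM in db/db fructose, db/db control and db/m cells, a log2 ratio of db/db control over db/m of 2.88 (1.43 to 4.81). Tnc, the matrix glycoprotein tenascin C, had 344.4, 283.5 and 132.3 CPM, with a log2 ratio of 1.10 and an interval above 0. Tgfb1 itself had 188.4, 96.19 and 66.17 CPM, and its log2 ratio of db/db fructose over db/db control was 0.97 (0.27 to 1.75). Of the list of TGF-beta signalling and matrix targets, 2 of 11 measured genes were higher and 0 lower for db/db control over db/m, and 4 of 18 higher and 0 lower for db/db fructose over db/db control. Of the enzymes of collagen synthesis and folding, 0 of 10 were higher and 3 lower, and then 6 of 20 higher and 1 lower. Other basement membrane proteins and matrix receptors had 3 of 12 higher and 1 lower, and then 7 of 20 higher and 1 lower. The shares of all genes printed above apply to these counts too.

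Pericyte and smooth muscle-like cells numbered 24, 25 and 23, far under 100, and give values rather than patterns. Bgn had 68, 15 and 42 UMIs in the db/db fructose, db/db control and db/m libraries, Timp3 had 73, 41 and 75, and Col4a1 had 39, 15 and 27. In the db/db control library these 3 members were the lowest of the 3 libraries. For db/db control over db/m, 1 of 11 measured members was higher and 5 lower beside 31.3% of all genes, and for db/db fructose over db/db control 7 of 13 were higher and 0 lower beside 44.5% of all genes.

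Podocytes make the filter's type IV network, and they were recovered mainly from the db/m kidney, so no ratio was formed. In the 12 db/db fructose, 8 db/db control and 108 db/m podocyte-like cells, Col4a3 had 52, 23 and 329 UMIs and Col4a4 had 41, 22 and 283 UMIs. In CPM these were 1594, 984.1 and 990.8 for Col4a3 and 1257, 941.3 and 852.3 for Col4a4, with intervals that reach from 1191 to 2091 for Col4a3 in the 12 db/db fructose cells. Col4a1, the chain of the other network, had 1, 2 and 7 UMIs there. Col4a5, on the X chromosome beside Col4a6, had 6, 5 and 63 UMIs, and Col4a6 had 0, 2 and 7. Mmp23, a metalloproteinase, had its highest class here with 18, 15 and 151 UMIs. The Col4a1 interval in the 8 db/db control cells, from 10.36 to 309.1 CPM, shows how little 2 UMIs fix.

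Col4a4 (chr1:82448423-82586849, minus strand) and Col4a3 (chr1:82586921-82722059, plus strand) are also head to head. The RefSeq window of Col4a4 (GRCm38.p6, chr1:82586800-82587099, minus strand) is shown as the counterpart of the pair above, 5′ to 3′. None of the 3 motifs was found in these letters on either strand, so it has no capitals.
Col4a4: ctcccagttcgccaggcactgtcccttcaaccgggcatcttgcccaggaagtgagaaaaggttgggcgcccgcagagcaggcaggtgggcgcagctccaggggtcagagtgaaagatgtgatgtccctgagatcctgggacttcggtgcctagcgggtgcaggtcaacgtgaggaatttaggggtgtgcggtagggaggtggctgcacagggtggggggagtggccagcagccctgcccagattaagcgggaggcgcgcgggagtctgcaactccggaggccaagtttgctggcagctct
Most UMIs of the pair came from the tubule. Proximal tubule-like cells held 68.1%, 57% and 73.9% of Col4a3 UMIs and 58.1%, 46.6% and 62.3% of Col4a4 UMIs in the db/db fructose, db/db control and db/m libraries. In these cells, Col4a3 had 698.4, 463.4 and 554.5 CPM and Col4a4 had 770.8, 514.9 and 594.2 CPM, lowest in the db/db control library for both. In thick ascending limb-like cells Col4a4 had 524.4, 340.6 and 349.9 CPM and Col4a3 had 354.6, 230.7 and 220.4 CPM. In distal convoluted tubule-like cells Col4a4 had 580.1, 347.5 and 389.5 CPM and Col4a3 had 273.2, 176.5 and 197.7 CPM. For db/db fructose over db/db control, the log2 ratios of Col4a3 were 0.59, 0.62 and 0.63 in these 3 classes and those of Col4a4 were 0.58, 0.62 and 0.74. With size factors the calls of Col4a3 ended at 0.33, 0.41 and 0.41, and those of Col4a4 in thick ascending limb-like and distal convoluted tubule-like cells at 0.41 and 0.52. Other settings ended them too: of 10 alternatives, the Col4a3 calls held in 7, 6 and 4. The Col4a4 calls in the last 2 classes held in 5 each. Both calls in thick ascending limb-like cells were lost with free RNA subtracted. Free RNA carries the pair too: Col4a3 had 284.1, 140.8 and 100.6 CPM in lymphocyte-like cells, ordered db/db fructose, db/db control and db/m, and subtracting the free RNA turned its ratio in distal convoluted tubule-like cells to -0.46.

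Endothelium-like cells numbered 922, 941 and 452, with members at 8790, 6697 and 6459 CPM. Timp3 had 3882, 3142 and 2804 CPM in db/db fructose, db/db control and db/m cells, and Sparc had 1537, 1064 and 1171 CPM. Neither passed 1.5-fold in either comparison. For db/db control over db/m, 6 of 35 measured members were higher and 6 lower, where 7.47% of all genes tested were higher and 10.5% lower.

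The lower members were led by Col15a1, a multiplexin of vessel basement membranes, and Adamts16. Col15a1 had 53, 21 and 80 UMIs (19.54, 8.833 and 60.26 CPM) in db/db fructose, db/db control and db/m cells, a log2 ratio of db/db control over db/m of -2.77 (-3.54 to -2.06). Its ratio of db/db fructose over db/db control was 1.15 (0.39 to 1.95), and its ratio of db/db fructose over db/m was -1.62 (-2.15 to -1.11). Adamts16 had 26.54, 23.97 and 97.17 CPM, with a log2 ratio of db/db control over db/m of -2.02 (-2.50 to -1.56), and both db/db libraries lay together. Re-clustering split the cells into glomerular, arterial, and peritubular and venous subsets. Glomerular-like cells were 561, 617 and 324. Within that subset Col15a1 had 30.44, 12.6 and 77.28 CPM and Adamts16 had 48.14, 40.78 and 134.9 CPM, with log2 ratios of db/db control over db/m of -2.62 (-3.48 to -1.83) and -1.73 (-2.22 to -1.25). Both differences were nearly as large within the subset as over all endothelium-like cells. Of the glomerular-like cells, 4 db/db fructose, 4 db/db control and 276 db/m cells formed a subcluster that was thus nearly of 1 library, so the subset holds different clusters in db/db and db/m kidneys.

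The higher members were Col27a1, Bgn, Fn1, Col13a1, Mmp14 and Adamts9. Col27a1 stood here under 25% of its level in proximal tubule-like cells, its highest class. Bgn had 73.73, 54.68 and 21.84 CPM, a log2 ratio of db/db control over db/m of 1.32 (0.73 to 1.96), and it stood at 175.5, 106.5 and 57.74 CPM in the 207, 227 and 96 arterial-like cells. Fn1 had 67, 59 and 14 UMIs, with a log2 ratio of 1.23 (0.38 to 2.19), nearly all in arterial-like cells, where it had 76.11, 73.64 and 38.5 CPM. In glomerular-like cells Fn1 had 1, 3 and 0 UMIs. The 5 highest endothelium-like cells held 31%, 23.1% and 75.9% of Bgn UMIs and 29.9%, 32.2% and 85.7% of Fn1 UMIs, so the db/m level of each rested on a few cells. Col13a1, a transmembrane collagen, had 14.75, 19.77 and 12.81 CPM and its interval took in 0, as did that of Mmp14. The calls of Col13a1, Mmp14 and Adamts9 were lost with doublets kept. Mural markers summed to 426.5, 328.9 and 191.3 CPM in endothelium-like cells, in the same order as Bgn, and their part was not tested.

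In db/db fructose over db/db control endothelium-like cells, 14 of 39 measured members were higher and 0 lower, where 10% of all genes tested were higher and 2.26% lower. The median log2 ratio was 0.43 over the members and 0.20 over all genes. Col4a1 had 474.4, 307.5 and 286.2 CPM in db/db fructose, db/db control and db/m cells, with a ratio of 0.63 (0.49 to 0.76). Col4a2 had 304.9, 186.7 and 142.4 CPM and a ratio of 0.71 (0.54 to 0.88). Col18a1, the multiplexin that carries endostatin, had 234.1, 153.1 and 122.8 CPM and a ratio of 0.61 (0.42 to 0.80). With size factors these fell short of the call at 0.43, 0.52 and 0.42, and 6 of the members were then higher. The calls of Col4a1, Col4a2 and Col18a1 held in 7, 8 and 7 of 10 alternative settings. In arterial-like cells alone Col4a2 had 197.6, 99.94 and 71.49 CPM, with a ratio of 0.98, while the Col4a1 ratio was 0.06 in the peritubular and venous subset of 74, 62 and 20 cells.

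Ccn2 in endothelium-like cells had 187, 61 and 78 UMIs (68.93, 25.66 and 58.75 CPM). Its log2 ratio was 1.43 (1.00 to 1.87) for db/db fructose over db/db control and -1.20 (-1.70 to -0.69) between db/db control and db/m. A few cells decided it: the 5 highest cells held 35.8%, 50.8% and 69.2% of the UMIs. In arterial-like cells the second ratio was -0.64, with 121.5, 51.29 and 79.74 CPM, and 1 of 3 other random seeds of the clustering turned it to 1.83. Smaller members higher in db/db fructose cells were Lamc3, a laminin chain, with 30, 10 and 1 UMIs, and Mmp28, epilysin, with 66, 27 and 26 UMIs.

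**Figure D3:**
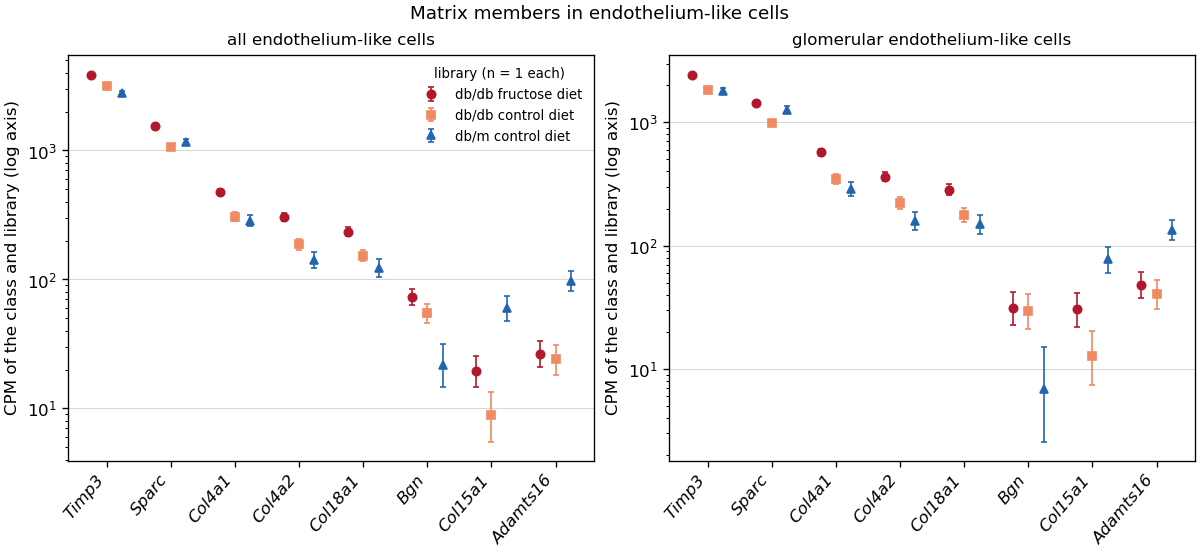
Members in endothelium-like cells: CPM per library with exact 95% intervals for counting error, libraries ordered db/db fructose, db/db control and db/m (922, 941 and 452 cells). Col15a1 and Adamts16 are lower in both db/db libraries than in the db/m library, and Col4a1 and Col4a2 are highest in the db/db fructose library.

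Proximal tubule-like cells were the largest class, with 8610, 6339 and 5823 cells. The member described first is Col27a1, a fibrillar collagen best known from cartilage. Col27a1 (chr4:63214004-63334991, plus strand) had 9503 UMIs (689 CPM, 675.2 to 703) in db/db fructose cells, 5241 UMIs (478.4 CPM, 465.5 to 491.5) in db/db control cells and 2537 UMIs (234.8 CPM, 225.8 to 244.1) in db/m cells. The log2 ratio was 1.03 (0.96 to 1.10) between db/db control and db/m and 0.53 (0.48 to 0.58) for db/db fructose over db/db control, the second within 1.5-fold. The first was called under all 10 alternative settings, at 0.93 or more. A Col27a1 UMI was found in 56.3%, 47.8% and 29.6% of these cells, and in 45.1%, 33.7% and 20.4% of them when thinned to 1000 UMIs a cell. In lymphocyte-like cells the shares were 21.2%, 13.8% and 6.10%, lower than in the tubule in each library and ordered the same way. The RefSeq promoter window of the gene (GRCm38.p6, chr4:63215162-63215461, plus strand) is shown because its ratio held under every setting tried, 5′ to 3′, with capitals for the GC box, of which it held 2; the CCAAT and TATA boxes were not found in these letters.
Col27a1: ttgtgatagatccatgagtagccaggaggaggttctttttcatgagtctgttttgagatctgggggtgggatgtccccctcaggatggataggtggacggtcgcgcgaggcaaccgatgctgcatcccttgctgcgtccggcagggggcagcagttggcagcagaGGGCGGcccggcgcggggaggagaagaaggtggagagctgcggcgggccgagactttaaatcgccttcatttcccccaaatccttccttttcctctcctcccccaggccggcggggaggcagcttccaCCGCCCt
Col27a1 was also higher in db/db control than in db/m cells of the endothelium and distal convoluted tubule, as its 99.58, 68.15 and 28.14 CPM in distal convoluted tubule-like cells show. In both classes its level was under 25% of that in its highest class, a mean of 467.4 CPM in proximal tubule-like cells. The lymphocyte-like shares above have the same order of libraries. In connecting tubule and principal cell-like cells its log2 ratio of db/db control over db/m was 0.78. With free RNA subtracted that ratio was 0.50 and no call. Beyond the alternative settings, what part of the values in these classes comes from free RNA was not tested.

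Col8a1, a short-chain network collagen, had 47.27, 61.71 and 20.18 CPM in db/db fructose, db/db control and db/m proximal tubule-like cells. Its log2 ratio of db/db control over db/m was 1.61 (1.39 to 1.84), called under all 10 alternatives from 1.43 to 1.81. A UMI was found in 6.55%, 9.06% and 3.19% of cells. Nid2, a laminin-to-collagen linker, had 32.48, 32.41 and 16.85 CPM and a ratio of 0.94 (0.68 to 1.21). Adamts15 had 13.92, 11.23 and 26.38 CPM and the opposite sign, -1.23 (-1.55 to -0.92). Timp3 had 2054, 1594 and 2435 CPM, with a ratio of -0.61 (-0.64 to -0.58) that ended when CPM was taken over UMIs outside the mitochondrial genome. In all, 3 of 22 measured members were higher and 4 lower for db/db control over db/m, where 7.4% of all genes tested were higher and 12.1% lower. For 6 of these members both db/db libraries lay on the same side of the db/m library: Col27a1, Col8a1, Nid2, Adamts15, Timp3 and Adamts1. The exception was Ccn2, higher in db/db fructose than in db/m cells. Between db/db fructose and db/m cells the log2 ratios were 1.55 for Col27a1, 1.23 for Col8a1, 0.95 for Nid2 and -0.92 for Adamts15, but -0.25 for Timp3 and -0.21 for Adamts1, both within 1.5-fold.

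For db/db fructose over db/db control, 9 of 24 measured members were higher in proximal tubule-like cells and 0 lower, where 11.2% of all genes were higher and 1.37% lower. Lama3, a laminin alpha chain, had 169.9, 108.3 and 79.6 CPM and a log2 ratio of 0.65 (0.55 to 0.75), which size factors took to 0.39. Adamts6 had 54.88, 32.22 and 29.25 CPM and a ratio of 0.77, which size factors took to 0.51. Some of the largest ratios were of members whose level here was under 25% of that in another class, named after their values were seen. Adamts5 had 14.94, 2.738 and 4.535 CPM, with a ratio of 2.45 (1.89 to 3.05). Ccn2 had 34.8, 9.128 and 17.68 CPM, with a ratio of 1.93 (1.62 to 2.26). Sparc had 46.84, 15.15 and 15.83 CPM, with a ratio of 1.63 (1.38 to 1.88). In these cells the mural marker Itga8, an integrin chain of mesangial cells, had 11.89, 2.373 and 3.795 CPM with a ratio of 2.32 (1.72 to 2.98), and the mural list summed to 97.59, 52.94 and 37.21 CPM. The db/db fructose library also held the most mesangial-like cells. What part of the tubule values comes from that RNA was not tested. Among members at 25% or more of their highest class, 4 of 16 were higher (Adamts6, Col16a1, Col4a3 and Lama3), and with size factors none of these 4 kept its call.

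**Figure D4:**
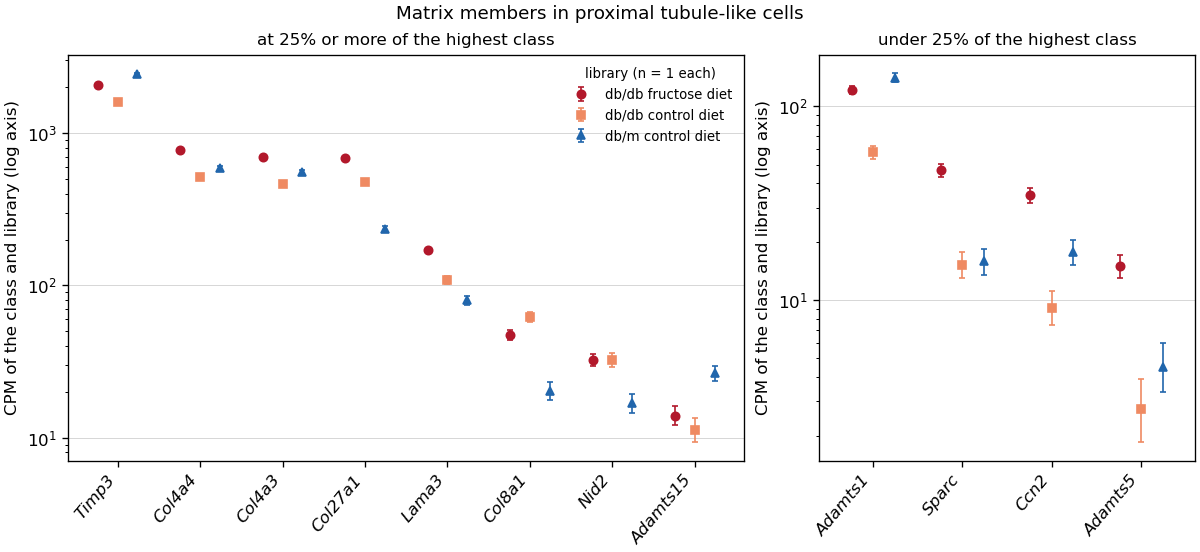
Members in proximal tubule-like cells, split by whether their level there is at least 25% of that in their highest class, as CPM per library with exact 95% intervals for counting error, libraries ordered db/db fructose, db/db control and db/m. Col27a1 stands at 689, 478.4 and 234.8 CPM, and Adamts5, Ccn2 and Sparc are in the panel of members whose highest class lies elsewhere.

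Among other pathway genes of proximal tubule-like cells, Plod2, a lysyl hydroxylase that modifies collagen, had 39.95, 16.7 and 48.96 CPM in db/db fructose, db/db control and db/m cells, lowest in the db/db control library. Pcolce, an enhancer of procollagen processing, had 18.71, 27.84 and 10.92 CPM, with a log2 ratio of db/db control over db/m of 1.35. Itgav, an integrin chain, had 189.3, 181.9 and 111.8 CPM and a ratio of 0.70. For db/db control over db/m, 3 of 14 collagen synthesis genes were higher and 3 lower, 1 of 16 other basement membrane and receptor genes was higher and 0 lower, and 1 of 13 TGF-beta genes was higher and 1 lower. The counts of db/db fructose over db/db control were 1 of 14, 3 of 17 and 5 of 14 higher, with 0 lower in each list. Of all genes tested in these cells, 7.4% were higher and 12.1% lower for db/db control over db/m. For db/db fructose over db/db control these shares were 11.2% and 1.37%.

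In the later tubule Adamts16 was among the members past 1.5-fold. In connecting tubule and principal cell-like cells, Adamts16 had 29.04, 24.66 and 11.36 CPM in the db/db fructose, db/db control and db/m libraries, a log2 ratio of db/db control over db/m of 1.12 (0.47 to 1.79), opposite in sign to its ratio in endothelium-like cells. For db/db control over db/m, 5 of 23 measured members were higher and 1 lower in thick ascending limb-like cells (background 11.8%), 4 of 20 and 1 in distal convoluted tubule-like cells (16.2%), 3 of 21 and 0 in connecting tubule and principal cell-like cells (21.3%) and 5 of 23 and 1 in intercalated-like cells (20.5%), the background being the share of all genes past 1.5-fold in either direction. For db/db fructose over db/db control the counts were 7 of 27 (10.4%), 9 of 23 (14.4%), 3 of 22 (21%) and 12 of 24 (33.2%) higher, with 1 member lower, Col24a1 of intercalated-like cells, on 4, 19 and 7 UMIs.

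Thin limb-like cells, 84, 50 and 80 and so under 100 in each library, held members of the other sign. Lamb1, a laminin beta chain, had 227.6, 359.8 and 491.8 CPM in db/db fructose, db/db control and db/m cells, lowest in the fructose library, with a log2 ratio of db/db fructose over db/db control of -0.66 (-1.09 to -0.22). That call was lost at Leiden resolution 2 (-0.44) and at 30% mitochondrial UMIs (-0.58). Lama3 had 15, 25 and 44 UMIs, with a ratio of -1.71 (-2.74 to -0.73). Nid2 had 31, 17 and 83 UMIs, with a ratio of db/db control over db/m of -1.14 (-1.99 to -0.38), opposite in sign to that in proximal tubule-like cells. These were 2 of the 3 lower among 19 measured members for db/db fructose over db/db control, with 2 higher, beside 29.1% of all genes past 1.5-fold; for db/db control over db/m 1 was higher and 2 lower of 19 beside 30.9%.

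Fibronectin and the inflammatory proteases belonged to mononuclear phagocyte-like cells, of which 306, 347 and 95 were kept, under 100 in the db/m library. The class pools clusters named by macrophage, monocyte or dendritic cell markers. Its ratios can therefore mix the makeup of the class with the level per cell, and the part of makeup was not tested. These cells held 70.2%, 50% and 54.3% of all Fn1 UMIs and 94.7%, 86.4% and 98% of all Mmp12 UMIs in the db/db fructose, db/db control and db/m libraries. Fn1 (chr1:71585520-71653200, minus strand) had 308, 89 and 25 UMIs, or 365.5 (325.8 to 408.7), 105.3 (84.56 to 129.6) and 82.1 (53.13 to 121.2) CPM. The log2 ratio was 1.80 (1.45 to 2.15) for db/db fructose over db/db control, called under all 10 alternatives from 1.59 to 1.82, and 0.36 (-0.29 to 1.06) between db/db control and db/m. The share of cells with a Fn1 UMI was 12.1%, 11.2% and 8.42%, and 12.8%, 7.58% and 5.56% when cells were thinned to 1000 UMIs, with intervals of 8.84% to 17.6%, 4.96% to 11% and 1.83% to 12.5%. The cells that had one held 8.32, 2.28 and 3.12 UMIs each before thinning. The thinned shares leave out cells too shallow to thin, so a thinned share can exceed the unthinned value. In the db/db fructose library 37 cells held a Fn1 UMI, and the 5 highest had 39.6% of the UMIs. Its log2 ratio of db/db fructose over db/m was 2.15 (1.57 to 2.80). Lymphocyte-like cells, at median depths of 1396, 1469 and 1622 UMIs against 2195, 2085 and 2782 in phagocyte-like cells, had 0 Fn1 UMIs in each library, which limits the share of lymphocyte-like cells with a captured UMI to 3.66%, 4.51% and 4.40%.

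The proteases of phagocyte-like cells were ordered otherwise. Mmp12, macrophage elastase, had 85.44, 89.91 and 164.2 CPM in db/db fructose, db/db control and db/m cells, a log2 ratio of db/db control over db/m of -0.87 (-1.40 to -0.32). Mmp13, a collagenase, had 22, 18 and 33 UMIs (26.11, 21.29 and 108.4 CPM), a ratio of -2.35 (-3.26 to -1.48). Both stood lower in both db/db libraries than in the db/m library, with ratios of db/db fructose over db/m of -0.94 and -2.05. The 5 highest cells held 58.3%, 48.7% and 68% of Mmp12 UMIs and 54.5%, 50% and 66.7% of Mmp13 UMIs, so a few cells carried each. Col14a1, a fibril-associated collagen, had 34, 50 and 4 UMIs, with a ratio of db/db control over db/m of 2.17 (0.73 to 4.10). In all, 10 of 18 measured members were higher and 3 lower for db/db control over db/m, beside 36.7% of all genes past 1.5-fold, and 4 of 26 higher and 1 lower for db/db fructose over db/db control beside 27.1%. Several of the 10, such as Col4a3, Col4a4 and Col27a1, are tubule members, and proximal tubule markers summed to 5105, 5256 and 3668 CPM in these cells; their part was not tested. Neutrophil-like cells, 42, 24 and 4, held Mmp9, a gelatinase of their granules, at 27, 12 and 6 UMIs.

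**Figure D5:**
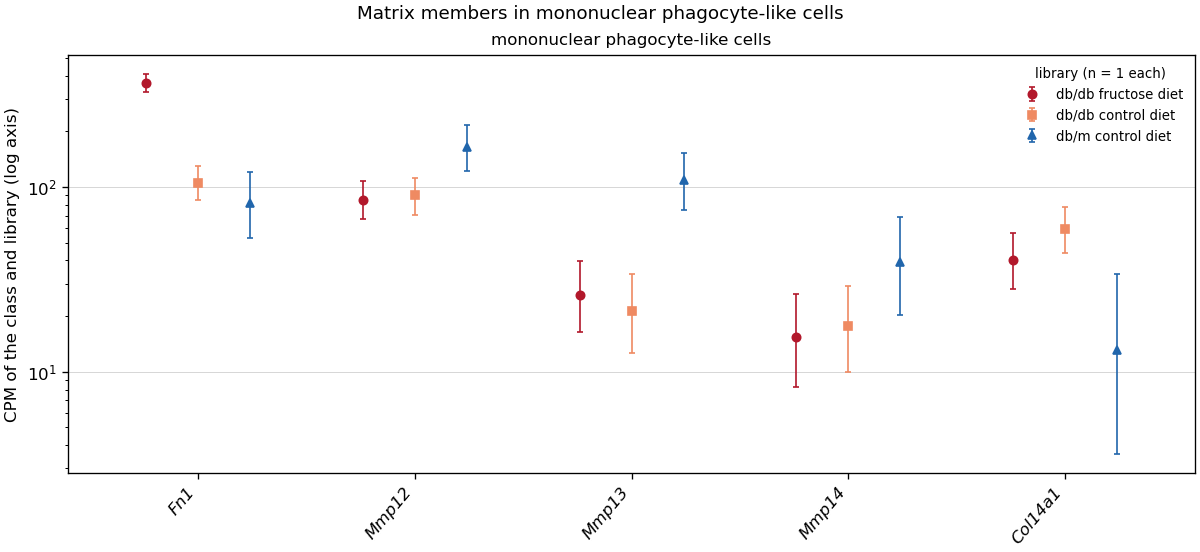
Members in mononuclear phagocyte-like cells: CPM per library with exact 95% intervals for counting error, libraries ordered db/db fructose, db/db control and db/m (306, 347 and 95 cells). Fn1 is highest in the db/db fructose library at 365.5 CPM, and Mmp12 and Mmp13 are highest in the db/m library.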

How the data were processed

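Droplet single-cell libraries of whole kidneys, 1 per group, were deposited as count matrices: the authors' values are raw UMI counts per gene and barcode, made with Cell Ranger 6.0.0 on mm10, per the submitters' processing notes. The labels' protocols give collagenase and pronase digestion of minced, perfused tissue, lysis of erythrocytes, and clearing of debris and dead cells. The gene annotation and whether the kit reads the 3′ or the 5′ end are not given in the sources used here. Deposited barcodes and UMIs were 20383 and 42028885 (db/db fructose), 26513 and 52704335 (db/db control) and 13524 and 31660184 (db/m).

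A barcode needed 200 genes or more and a mitochondrial share of UMIs no higher than 50%. Doublets were treated by removing the highest Scrublet scores, 0.8% per 1000 barcodes, which took 3324, 5624 and 1463 barcodes. Cells were clustered with scanpy 1.11.5 (Python 3.11.15, scikit-learn 1.9.0, scipy 1.17.1, numpy 2.4.6, pandas 2.3.3, python-igraph 0.11.9; figures with matplotlib 3.10.9) on 2000 variable genes without the members, 30 principal components, 15 neighbours and Leiden resolution 1, giving 31 clusters; endothelium-like cells were clustered again at 0.5. A cluster was named where 3 or more markers were found in at least 10% of its cells at 2-fold over the median cluster and its 10 best markers averaged a log2 ratio of 1.2 (50 CPM added), 0.5 above the next class. This naming rule, the split of mural cells and the reference for endothelial subsets were set after the clusters were seen, and differences from any other naming can come from the rebuilt names. 

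UMIs were summed per class and library as CPM. A gene was measured at 10 CPM in either library and 20 UMIs in both together, and called at 1.5-fold. Ratios (exact conditional binomial), CPM (exact Poisson) and shares (Clopper-Pearson) have 95% intervals for counting error only. Shares thinned to 1000 UMIs a cell leave out cells with fewer UMIs, and so rest on fewer cells than the unthinned shares. The calculation was tested on simulated data. Members named were drawn from the 8 of highest level per class and those of most extreme ratio. The latter were up to 10 each way over all cells and in the endothelium. Elsewhere they were up to 3 each way among members at 25% or more of their highest class. Neighbouring pairs and up to 3 genes of each pathway list were added. Not every member so drawn is named, and some others are, such as Mmp2 and Mmp14 in mesangial-like cells. The rest are given as counts. The members and lists were chosen with earlier results of these data known. Positions are those of GENCODE M21 (mm10). RefSeq held a promoter window for 74 members; Col4a3, Ccn2, Adamts5, Fn1 and Col12a1 had none. Some members have exons that overlap a gene on the other strand, Timp3, Fn1, Col4a3, Col4a1 and Col4a2 among them. The use of strand in counting is not stated. Alternatives were size factors, UMIs outside the mitochondrial genome (chosen after seeing the data), 30% mitochondrial UMIs, 500 genes, doublets kept, Leiden resolution 2, members among the variable genes, 1 and 50 CPM, free RNA subtracted and 3 other random seeds for the endothelial clustering (chosen after seeing the data). Ratios of db/db fructose over db/m were added in the same way. One member is counted but not reported here.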

Additional observations from a re-analysis of the deposited data

How the results depend on the processing

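No paired analysis was possible because each group has 1 library. Leaving out a library removes its group, and only the ratios of db/db fructose over db/m leave out the db/db control library. Counts of members called were the values most open to settings. Over all kept cells, the 16 higher for db/db fructose over db/db control became 8 with size factors, 10 over UMIs outside the mitochondrial genome, 10 at 30% mitochondrial UMIs, 33 at 1 CPM and 9 at 50 CPM. In mesangial-like cells, db/db control over db/m gave 6 members higher over UMIs outside the mitochondrial genome, 8 with doublets kept and 6 with size factors, in place of 3, and 1 lower at 30% mitochondrial UMIs in place of 3. For db/db fructose over db/db control the 9 higher became 3 over UMIs outside the mitochondrial genome, 4 at 30% mitochondrial UMIs and 3 with size factors. In endothelium-like cells, a minimum of 50 CPM left 2 higher and 3 lower for db/db control over db/m in place of 6 and 6. For db/db fructose over db/db control the 14 higher became 6 outside the mitochondrial genome, 7 with free RNA subtracted, 4 at 50 CPM and 6 with size factors, and 1 was lower with free RNA subtracted and with size factors in place of 0. In proximal tubule-like cells, db/db control over db/m had 7 higher with free RNA subtracted and 8 at 1 CPM in place of 3, and 10 lower at 1 CPM and 2 at 50 CPM in place of 4. For db/db fructose over db/db control the 9 higher became 19 at 1 CPM, 5 at 50 CPM and 4 with size factors, and 3 were lower with free RNA subtracted, 1 at 1 CPM and 1 with size factors in place of 0. Among ratios of named members called at the main settings, the sign turned in 3 cases. Turns of sign of ratios within 1.5-fold were not counted. With free RNA subtracted, Col4a3 turned in distal convoluted tubule-like cells (-0.46) and Col4a2 in intercalated-like cells (-0.45). Ccn2, called over all endothelium-like cells, turned in arterial cells for db/db control over db/m (1.83). That was with 1 of 3 other random seeds of the endothelial clustering, an alternative chosen after seeing the data. With those seeds Col15a1 and Adamts16 in glomerular cells kept db/db control over db/m ratios of -2.60, -2.60 and -2.57, and of -1.71, -1.71 and -1.68. The cause was not tested. Of the other values for single members, 521 moved, with counts of the classes not named here among them, and 2400 did not. Depth limits the small classes: in pericyte and smooth muscle-like, thin limb-like and podocyte-like cells most members named have under 100 UMIs in a library.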
